A study of Mus musculus with 12 samples.

Results

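The 40 genes described here encode proteins that build, branch, cut and anchor actin filaments or that signal to them during engulfment, from actin itself (Actb, Actg1) to the myosins Myo1e and Myh9. They were taken from a list of gene symbols, out of 21887 protein-coding genes in the RefSeq GRCm38.p6 table. No measured value entered the rule, but the list was chosen with earlier results of these data known, so it is not independent of them. A FRA-1 peak was counted for a gene when it lay in the gene or within 20 kb of either end, so a peak near a listed gene could also lie near another gene. All 40 genes had a peak in at least 2 of the 9 replicates, and 36 had one without stimulation, 38 after LPS and 38 after apoptotic cells. These shares of 90.0%, 95.0% and 95.0% were near those of protein-coding genes of similar length, 83.7%, 94.9% and 95.6%.

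ChIP-seq with an antibody against FRA-1, which recovers and sequences the DNA that FRA-1 binds, was performed on adherent peritoneal macrophages of 8-week-old mice in 3 conditions with 3 replicates each. The cells were left unstimulated, stimulated for 1 h with LPS, a component of bacterial outer membranes, or given apoptotic cells for 1 h at a ratio of 1 to 5. The records name no mutant allele in any group, and the 3 pooled inputs were not used here. The sample records describe elicitation by 2.5 ml of 4% thioglycollate for 72 h, a 129/C57Bl6 background and 1 µg/mL LPS, whereas the series design describes lavage of C57Bl/6 mice and 10 µg/mL LPS. The records name the same 3 mice in every condition, whereas the design text counts 9 animals in all. One LPS record states that its raw data are missing. A peak list measures binding and not expression, so the macrophage label could not be checked against marker genes.

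A macrophage engulfs a dying cell or a bacterium by pushing actin-filled membrane around it. The small GTPase RAC1 is switched on by exchange factors such as the ELMO and DOCK pair or the VAV proteins, and it acts through the WAVE complex on the ARP2/3 complex, which branches new filaments, while CDC42 acts through WASP proteins. FRA-1, encoded by Fosl1, is an AP-1 transcription factor that binds DNA as a dimer with a JUN protein, typically at the palindromic letters TGANTCA.

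Few starts of these genes lay under a FRA-1 peak, and the sequences are shown at those where either a peak or the letters TGANTCA were found. RefSeq sequences of GRCm38.p6 from 250 bases before to 50 bases after a start were at hand for 46 starts of 35 listed genes, and none for Actb, Cyfip1, Nckap1l, Rac1 and Rac2. A peak of any of the 9 replicates overlapped 1 of the 46, at Crk, against 4.68% of all 32851 promoter sequences. TGANTCA, which reads the same on both strands, was found in 3 of the 46, at Actn4, Vav3 and Ezr, against 7.81% of all promoter sequences. The stretches before the gene are printed 5′ to 3′ on the strand of the gene, with capitals for the bases under the peak at Crk and for TGANTCA at the other 3.
Crk: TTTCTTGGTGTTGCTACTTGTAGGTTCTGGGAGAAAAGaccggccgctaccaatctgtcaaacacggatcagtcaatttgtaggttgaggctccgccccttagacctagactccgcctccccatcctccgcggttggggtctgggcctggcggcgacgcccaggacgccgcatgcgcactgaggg
Actn4: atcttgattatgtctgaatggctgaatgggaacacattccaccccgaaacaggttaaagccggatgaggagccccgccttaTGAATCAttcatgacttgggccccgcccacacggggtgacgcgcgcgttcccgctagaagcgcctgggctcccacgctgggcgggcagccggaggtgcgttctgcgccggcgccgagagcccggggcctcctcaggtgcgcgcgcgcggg
Vav3: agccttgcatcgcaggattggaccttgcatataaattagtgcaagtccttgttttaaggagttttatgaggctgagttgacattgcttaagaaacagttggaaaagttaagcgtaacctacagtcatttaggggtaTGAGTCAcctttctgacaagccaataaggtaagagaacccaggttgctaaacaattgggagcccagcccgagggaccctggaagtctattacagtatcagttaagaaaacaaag
Ezr: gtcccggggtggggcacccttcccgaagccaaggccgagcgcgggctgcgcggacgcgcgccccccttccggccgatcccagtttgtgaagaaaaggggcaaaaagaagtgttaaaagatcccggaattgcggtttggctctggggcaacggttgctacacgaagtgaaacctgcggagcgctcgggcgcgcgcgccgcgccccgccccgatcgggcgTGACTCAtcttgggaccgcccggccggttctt
The Crk stretch lies at chr11:75679009-75679193 on the + strand, and its 38 capital bases belonged to a peak at chr11:75678876-75679046 that only LPS replicate 2 listed, with a score of 85.67. The Actn4 stretch lies at chr7:28962352-28962582 on the - strand, with its match to TGANTCA beginning 169 bases before the start. The middle letter differed, with TGAATCA at Actn4, TGAGTCA at Vav3 and TGACTCA at Ezr. The Vav3 stretch lies at chr3:109573757-109574006 on the + strand, before a start inside the gene, with the letters 114 bases before that start. The Ezr stretch lies at chr17:6782781-6783030 on the - strand, with the letters 32 bases before the start. No peak overlapped the last 3 windows, and the nearest peak of any replicate to the start was 719 bp away at Actn4, 1713 bp at that Vav3 start and 10685 bp at Ezr. A match of letters is a description and not a binding site.

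Each replicate had its own list of peaks, each with a score that was not normalized between replicates. How the score was defined was not given, and a higher score was taken here to mean a stronger peak. The replicates differed widely in length of list, from 20981 to 28314 peaks without stimulation, 39728 to 63010 after LPS and 31501 to 79474 after apoptotic cells. They also fell into 2 classes by their smallest peak, 104 to 116 bp wide in unstimulated replicate 3, LPS replicates 1 and 3 and apoptotic cell replicate 3, and 158 to 172 bp in the other 5. Read counts are not in the tables, so the depth of each replicate is unknown. The replicate numbers follow the order of the score columns, which name no mouse. The p-values here apply to these samples only, and each was the smallest that 3 replicates against 3 allow.

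A FRA-1 peak near a listed gene was common in every condition. Without stimulation 23, 21 and 27 of the 40 genes had a peak in replicates 1, 2 and 3. After LPS the counts were 32, 28 and 34 genes. After apoptotic cells they were 30, 29 and 33. Every stimulated replicate thus listed more of these genes than every unstimulated replicate (means of 23.7 ± 3.06, 31.3 ± 3.06 and 30.7 ± 2.08 genes, SD, n = 3), and the same order held for genes in general. Genes of similar length, here protein-coding genes within 50% of the length of a listed gene, had a peak in 48.8 to 59.4% of cases in the unstimulated replicates, 68.1 to 84.9% after LPS and 62.3 to 88.0% after apoptotic cells. The listed genes lay at 52.5 to 67.5%, 70.0 to 85% and 72.5 to 82.5%. In 8 of the 9 replicates the share of listed genes was above that of genes of similar length, by amounts from 0.131 to 10.2 percentage points, and in apoptotic cell replicate 3, which had the longest list, it was below, at 82.5% against 88.0%.

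**Figure D1:**
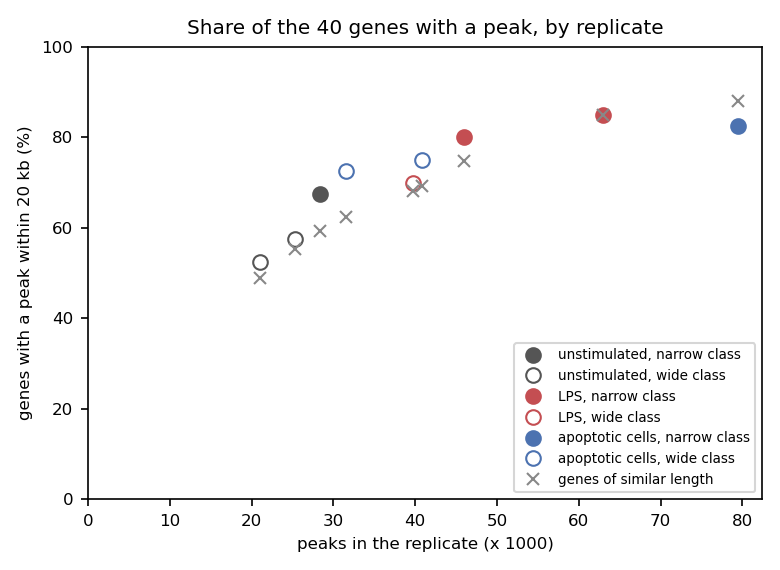
Share of the 40 listed genes with a FRA-1 peak within 20 kb (vertical axis, percent) against the number of peaks in the replicate (horizontal axis, in units of 1000), where each circle is a replicate, filled for the narrow and open for the wide class of smallest peak width, and each cross is the share among genes of similar length in the same replicate. The share climbed from 52.5% in the shortest list of 20981 peaks to 85% in a list of 63010, and the crosses climbed with it.

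Requiring the same place to be bound more than once set the conditions further apart. A region was formed from overlapping or touching peaks of the 3 replicates of a condition and called shared when at least 2 of them listed it. A shared region lay near 10 listed genes (25%) without stimulation, 25 (62.5%) after LPS and 17 (42.5%) after apoptotic cells. Among genes of similar length the shares were 16.7%, 56.0% and 29.4%, and among all protein-coding genes 13.6%, 48.7% and 24.4%. A region shared by all 3 replicates lay near 5 listed genes (12.5%), 10 (25%) and 13 (32.5%), against 7.49%, 17.9% and 17.5% of genes of similar length. The listed genes were above genes of similar length in each of these 6 counts, with no test made, since the list was chosen with earlier results of these data known. The LPS count rested on replicates 1 and 3, for it was 11 genes without replicate 1 and 10 without replicate 3, against 25 without replicate 2. The share of all genes moved in the same way, to 16.5% and 15.1% against 47.6%. The unstimulated count was 5 without replicate 3, beside 6.71% of all genes.

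**Figure D2:**
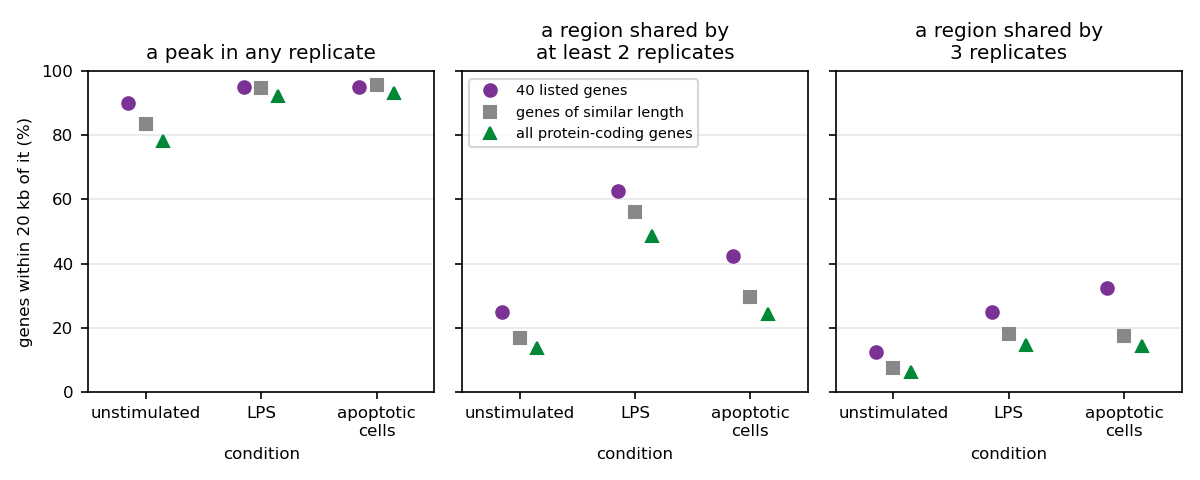
Percent of genes (vertical axis) with a FRA-1 peak in any replicate, with a region shared by at least 2 replicates and with a region shared by 3, in each condition (horizontal axis), for the 40 listed genes (circles), genes of similar length (squares) and all protein-coding genes (triangles). For regions shared by 3 replicates the listed genes sat at 12.5%, 25% and 32.5%, above the squares at 7.49%, 17.9% and 17.5%.

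The comparison of stimulated with unstimulated cells asked at which of these genes every stimulated replicate listed more peaks than every unstimulated replicate. After LPS this was so at 6 of the 40 (15%), Actb, Arpc2, Wasl, Rac1, Crk and Vav3, beside 9.87% of all protein-coding genes and 11.9% of genes of similar length. After apoptotic cells it was so at 5 (12.5%), Cyfip1, Rac1, Dock1, Crk and Coro1a, beside 6.57% of all genes and 8.15% of genes of similar length. Rac1 and Crk were in both groups of genes, and both comparisons use the same 3 unstimulated replicates. No listed gene had fewer peaks in every LPS replicate, beside 0.187% of all genes, or in every replicate with apoptotic cells, beside 0.169%. Each such separation of 3 replicates from 3 had p = 0.1 in an exact permutation test, two-sided, the smallest p that this design allows, so no gene could pass a threshold of 0.05. When only the 20981 highest-scoring peaks of each replicate were used, 1 gene was left after LPS, Rac1, beside 1.78% of all genes, and 1 after apoptotic cells, Dock1, beside 1.37%. With peaks scoring at least 100, the 5 LPS genes were Arpc2, Rac1, Elmo1, Vav3 and Myo1e, beside 6.91% of all genes. Actb, Wasl and Crk were then no longer among them. The 2 genes after apoptotic cells were then Rac1 and Dock1, beside 3.94%, without Cyfip1, Crk and Coro1a. Within the narrow class, 22 genes had more peaks in both LPS replicates than in the single unstimulated one, beside 38.4% of all genes, and 23 had more in the single replicate with apoptotic cells, beside 67.9%. Within the wide class the counts were 16 genes after LPS, beside 33.5% of all genes, and 11 after apoptotic cells, beside 14.4%.

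**Figure D3:**
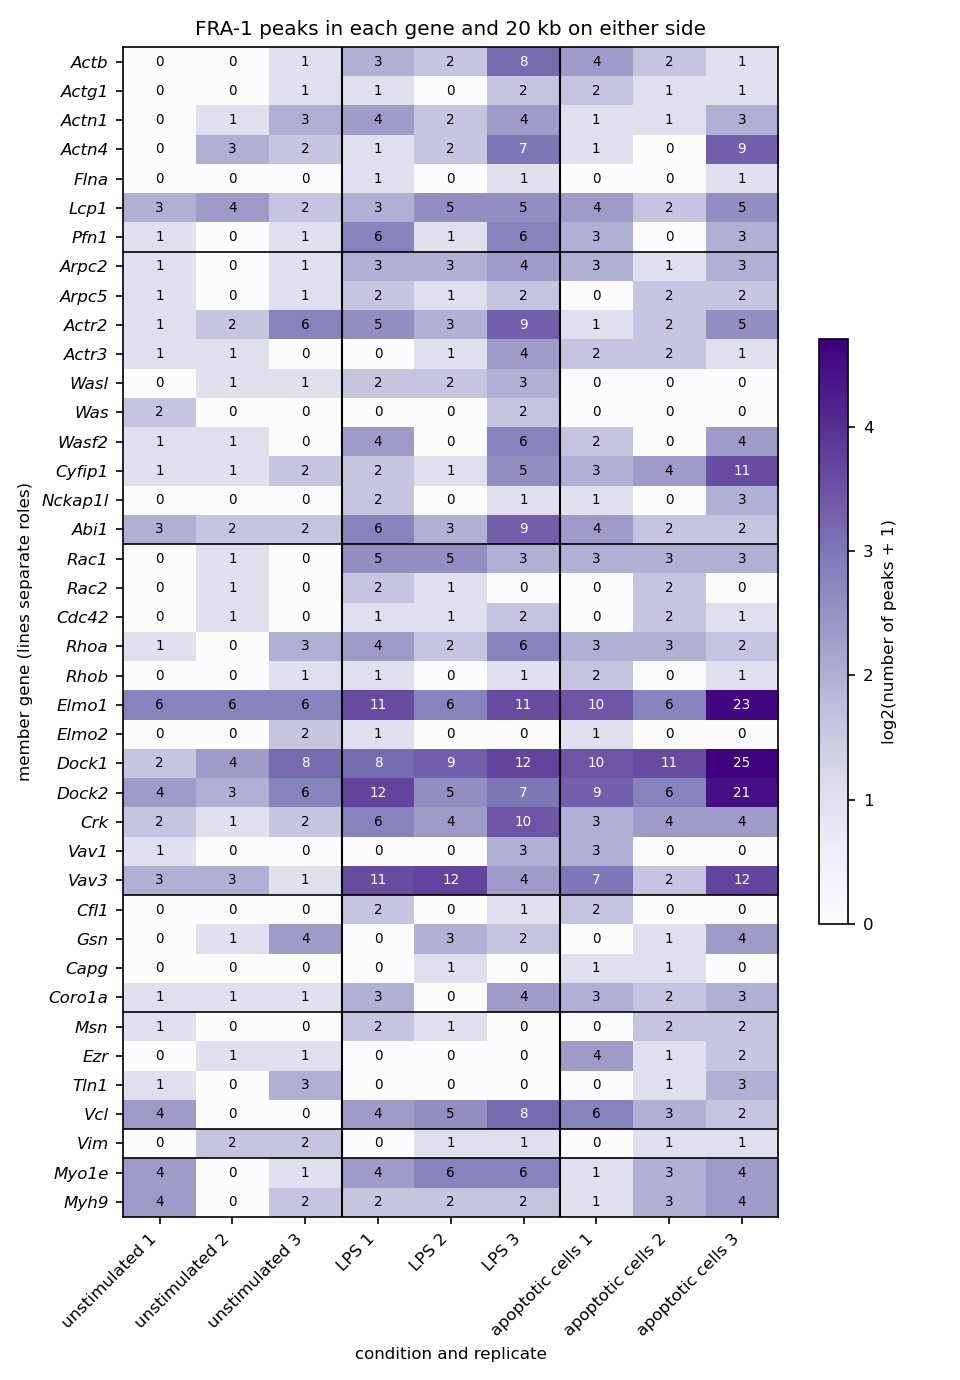
Number of FRA-1 peaks, printed in each cell and coloured on a log2 scale of the number plus 1, in each listed gene and 20 kb on either side (rows, with lines between the roles) and each replicate (columns). Rac1 went from 0, 1 and 0 peaks without stimulation to 5, 5 and 3 after LPS and 3, 3 and 3 after apoptotic cells, and Ezr and Tln1 had none in the 3 LPS replicates.

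Among actin genes and the genes of crosslinkers, 1 of 7, Actb, had more peaks in every LPS than in every unstimulated replicate, beside 9.87% of all genes and 11.9% of genes of similar length. A shared region in any condition lay near 5 of the 7, beside 50.3% of all genes and 57.8% of genes of similar length. Actb, which encodes cytoplasmic beta-actin, had 0, 0 and 1 peaks without stimulation, 3, 2 and 8 after LPS and 4, 2 and 1 after apoptotic cells. The LPS replicates did not overlap with the unstimulated ones, and those with apoptotic cells touched them at 1 peak. A region 2854 bp beyond the higher end of Actb, at chr5:142910830-142911015, had peaks in all 3 LPS replicates with scores of 337.71, 126.89 and 470.12. The same place was listed in apoptotic cell replicates 1 and 2 at 211.84 and 133.78 and in unstimulated replicate 3 at 244.10. Its nearest protein-coding start in the promoter sequences, which do not hold Actb, was that of Fbxl18 at 15684 bp.

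Actg1, the other cytoplasmic actin, had 0, 0 and 1 peaks without stimulation, 1, 0 and 2 after LPS and 2, 1 and 1 after apoptotic cells, so the groups touched. Its single widely shared place, at chr11:120337821-120337995 and 10587 bp from the start, was listed in 6 replicates, among them all 3 with apoptotic cells (scores of 211.84, 175.18 and 111.27). Actn1, an alpha-actinin that bundles filaments, had 0, 1 and 3 peaks, then 4, 2 and 4, then 1, 1 and 3, with overlap between all conditions. A region inside Actn1 at chr12:80172186-80172487 was in every LPS and every apoptotic cell replicate and in unstimulated replicate 3 (scores of 110.09 to 240.92).

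Lcp1, the leukocyte bundling protein L-plastin, had 3, 4 and 2 peaks without stimulation, 3, 5 and 5 after LPS and 4, 2 and 5 after apoptotic cells. Some peak thus lay within 20 kb in all 9 replicates, as at 13.2% of all genes and 19.2% of genes of similar length. No single place at Lcp1 was listed in more than 2 replicates. These groups overlapped, and of its 31 regions only 2 were shared, both by LPS replicates 1 and 3. Pfn1, which loads actin monomers for assembly, had 1, 0 and 1 peaks, then 6, 1 and 6, then 3, 0 and 3. Its 5 shared regions were also those of LPS replicates 1 and 3, and 4 of them were nearer to the start of a neighbour such as Gp1ba or Slc25a11 than to that of Pfn1. The crosslinkers Actn4 and Flna had no shared region, with 0 to 9 and 0 to 1 peaks per replicate.

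The branching machinery held 2 of the 3 places near listed genes that all 9 replicates shared. In all, 7 of the 10 genes of the ARP2/3, WASP and WAVE group had a shared region in any condition. This was so for 50.3% of all genes and 57.8% of genes of similar length. Actr2, which encodes the ARP2 subunit, had 1, 2 and 6 peaks without stimulation, 5, 3 and 9 after LPS and 1, 2 and 5 after apoptotic cells, with overlap throughout. A region inside Actr2 at chr11:20075361-20075533, 37504 bp from the start, had a peak in all 9 replicates. Its scores were 140.93, 150.95 and 292.88 without stimulation, 267.73, 207.88 and 245.97 after LPS and 211.84, 175.18 and 184.35 after apoptotic cells. Such a region in 9 of 9 replicates lay near 3 listed genes (7.50%), against 6.09% of genes of similar length and 4.92% of all genes.

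Cyfip1, a subunit of the WAVE complex that binds active RAC1, held the highest-scoring of these. Its region inside the gene, at chr7:55892293-55892654, scored 371.23, 268.29 and 498.72 without stimulation, 849.35, 246.04 and 759.83 after LPS and 712.61, 652.36 and 432.42 after apoptotic cells. Each of these scores stood at a percentile of 94.3 or higher among the peaks of its own replicate, with or without a stimulus. In number, Cyfip1 had 1, 1 and 2 peaks without stimulation, 2, 1 and 5 after LPS and 3, 4 and 11 after apoptotic cells. The replicates with apoptotic cells lay above the unstimulated ones (6.00 ± 4.36 against 1.33 ± 0.577, SD, n = 3), and the 11 peaks came from the replicate with the longest list.

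Arpc2, a subunit at the core of the ARP2/3 complex, had 1, 0 and 1 peaks without stimulation, 3, 3 and 4 after LPS and 3, 1 and 3 after apoptotic cells. The LPS replicates lay above the unstimulated ones without overlap (3.33 ± 0.577 against 0.667 ± 0.577, SD, n = 3). The place listed most often lay 11884 bp before its start, at chr1:74224436-74224831, in all LPS and all apoptotic cell replicates and in unstimulated replicate 3. Its scores were 125.63, 67.83 and 283.45 after LPS, 299.80, 133.78 and 133.93 after apoptotic cells and 196.70 in the unstimulated replicate. A shared place inside Arpc2, at chr1:74259849-74260098, was listed in LPS replicates 1 and 3 alone.

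Wasl, the N-WASP protein that passes the CDC42 signal to ARP2/3, had 0, 1 and 1 peaks without stimulation, 2, 2 and 3 after LPS and none in any replicate with apoptotic cells. It was the only listed gene with more peaks in every LPS replicate than in every replicate with apoptotic cells (2.50% of the list, beside 1.99% of all genes). Its shared region, inside the gene at chr6:24660163-24660463, was that of LPS replicates 1 and 3, with scores of 201.70 and 161.76. All of these are small numbers of peaks.

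Abi1, a WAVE subunit, had 3, 2 and 2 peaks without stimulation, 6, 3 and 9 after LPS and 4, 2 and 2 after apoptotic cells. The lowest LPS replicate met the highest unstimulated one at 3 peaks. A region 13720 bp beyond its lower end, at chr2:22926073-22926353, was listed in 8 replicates, all but LPS replicate 2, with scores of 126.58 to 430.45. Arpc5 had 1, 0 and 1, then 2, 1 and 2, then 0, 2 and 2 peaks, and the WAVE protein gene Wasf2 had 1, 1 and 0, then 4, 0 and 6, then 2, 0 and 4. The shared regions of both genes had peaks in LPS replicates 1 and 3, and the numbers of peaks overlapped between conditions. Actr3, the X-linked Was and Nckap1l had no shared region, with 0 to 4, 0 to 2 and 0 to 3 peaks per replicate, and Was had the fewest replicates with a peak, 2 of 9.

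Of the 5 GTPase genes, Rac1 was the only 1 at which stimulated and unstimulated replicates did not overlap. Every LPS replicate listed more peaks than every unstimulated one at 9.87% of all genes and 11.9% of genes of similar length. For apoptotic cells these shares were 6.57% and 8.15%. Rac1 (chr5:143505481-143528031), the GTPase that drives the engulfing cup, had 0, 1 and 0 peaks without stimulation, 5, 5 and 3 after LPS and 3, 3 and 3 after apoptotic cells. Both stimulated groups lay above the unstimulated one with no overlap (means of 4.33 ± 1.15 and 3.00 ± 0 against 0.333 ± 0.577, SD, n = 3). The peaks after stimulation were mostly outside the gene, beyond its higher end. With the gene body alone, the difference between apoptotic cells and unstimulated cells turned to -0.333 peaks per replicate, and that between LPS and unstimulated cells was 0.333.

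The place at Rac1 that all 6 stimulated replicates shared was chr5:143544827-143545002, 16796 bp beyond the gene. It scored 337.71, 126.89 and 448.80 after LPS and 129.52, 94.43 and 146.98 after apoptotic cells, and no unstimulated replicate listed it. The start nearest to it in the promoter sequences, which do not hold Rac1, was that of Fam220a at 3806 bp. Regions listed by all 3 LPS replicates and by none without stimulation made up 0.209% of the 300608 regions of the genome, and this was the only such region near a listed gene, where 2.58% of all genes and 3.24% of genes of similar length had such a region nearby. For apoptotic cells the share of regions was 0.108%, and 3 listed genes had such a region, Rac1, Elmo1 and Crk, where 1.30% of all genes and 1.62% of genes of similar length had such a region. Fisher's exact test on 3 of 3 against 0 of 3 replicates gave p = 0.1, two-sided, the smallest it can give.

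A neighbouring place at chr5:143543595-143543762 was listed in LPS replicates 1 and 3 and in apoptotic cell replicates 1 and 2, again with no unstimulated peak. Closer to the gene, 3994 bp beyond its higher end, chr5:143532025-143532557 was the only 1 of the 3 that the deposited gene column assigned to Rac1, with peaks in LPS replicates 1 and 2 and apoptotic cell replicate 1.

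**Figure D4:**
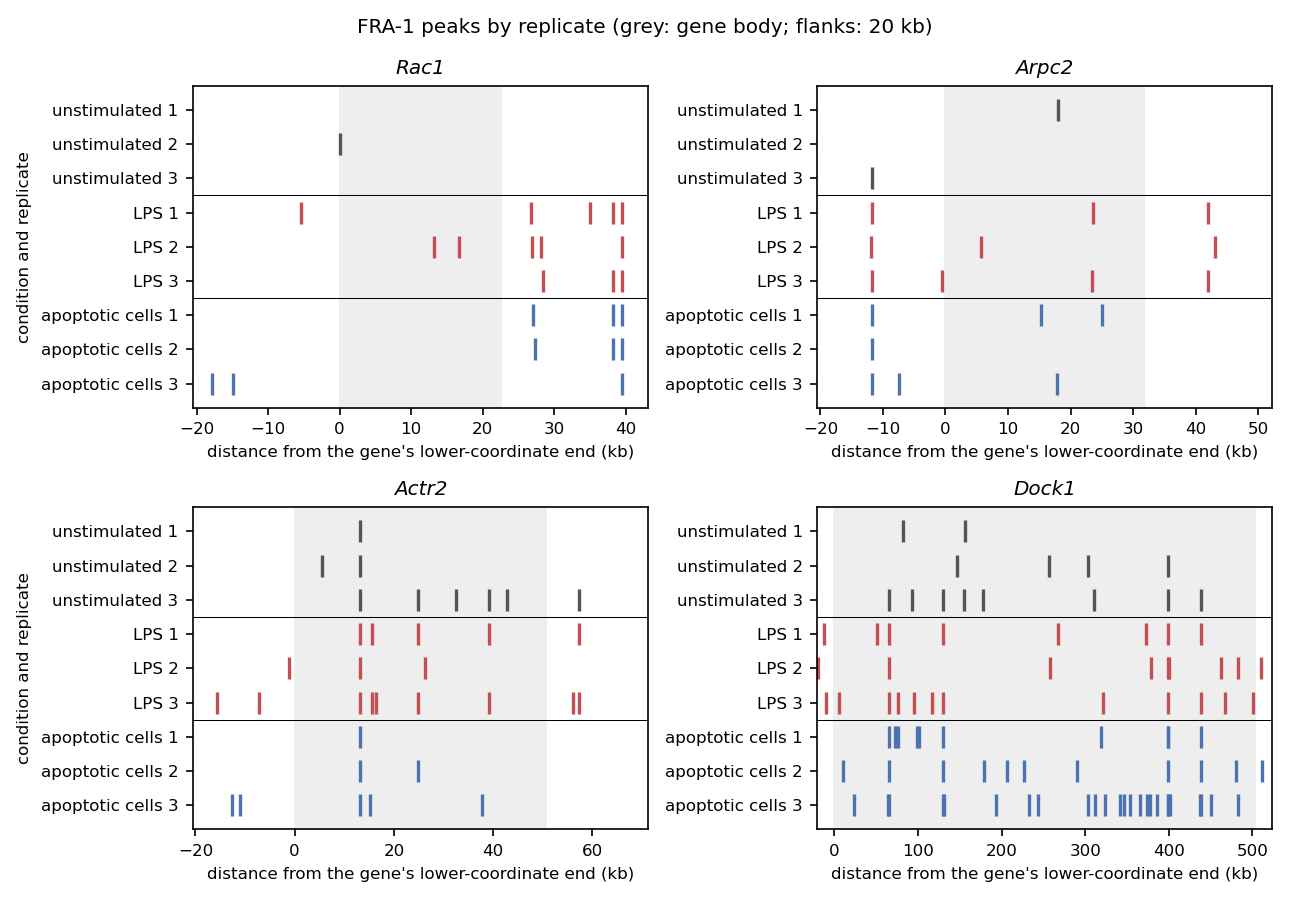
Position of each FRA-1 peak (vertical strokes) by replicate (rows) at Rac1, Arpc2, Actr2 and Dock1, with distance from the lower-coordinate end of the gene in kb on the horizontal axis and the gene body in grey. At Rac1 the strokes of the 6 stimulated replicates line up 16796 bp beyond the gene where the unstimulated rows are empty, at Actr2 all 9 rows share a place inside the gene, and at Dock1 the row of apoptotic cell replicate 3 holds 25 strokes.

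Rhoa, which controls contraction, had 1, 0 and 3 peaks without stimulation, 4, 2 and 6 after LPS and 3, 3 and 2 after apoptotic cells, and its groups overlapped. A region inside Rhoa at chr9:108326487-108326848 was in 8 replicates, all but unstimulated replicate 2, with scores of 88.80 to 228.25. The immediate early gene Rhob had 0, 0 and 1, then 1, 0 and 1, then 2, 0 and 1 peaks. Its shared place lay 16303 bp from the start at chr12:8483620-8483793, with peaks in unstimulated replicate 3, LPS replicates 1 and 3 and apoptotic cell replicates 1 and 3. Cdc42 had 0, 1 and 0, then 1, 1 and 2, then 0, 2 and 1 peaks, again with overlap, and Rac2, the leukocyte RAC, had 0 to 2 peaks per replicate and no shared region.

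Among the exchange factors and their partners were the 4 longest of the listed genes, which also held the most peaks. Dock1, which with ELMO activates RAC1 downstream of engulfment receptors, is 503 kb long and had 2, 4 and 8 peaks without stimulation, 8, 9 and 12 after LPS and 10, 11 and 25 after apoptotic cells. The replicates with apoptotic cells lay above the unstimulated ones (15.3 ± 8.39 against 4.67 ± 3.06, SD, n = 3), whereas LPS replicate 1 met unstimulated replicate 3 at 8. Its most often listed place, inside the gene at chr7:135069962-135070137, scored 150.95 and 292.88 in unstimulated replicates 2 and 3, 314.12, 250.60 and 365.26 after LPS and 255.22, 262.70 and 223.11 after apoptotic cells. Inside the gene 3 further regions were listed in 6 or 7 replicates, each with a peak in all 3 replicates with apoptotic cells and, of the unstimulated ones, in replicate 3 only.

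Dock2, the DOCK protein of leukocytes, is 557 kb long and had 4, 3 and 6 peaks without stimulation, 12, 5 and 7 after LPS and 9, 6 and 21 after apoptotic cells. Its groups overlapped, and its region at chr11:34744686-34744862 was the third place in the list with a peak in all 9 replicates, with scores of 102.95 to 283.51. Elmo1, the partner of the DOCK proteins, is 518 kb long and had 6, 6 and 6 peaks, then 11, 6 and 11, then 10, 6 and 23, so the lowest replicate of every condition had 6. A region inside Elmo1 at chr13:20353699-20353878 was listed in all 3 replicates with apoptotic cells (129.52, 133.78 and 146.98) and in LPS replicates 1 and 3 (200.47 and 324.62), and in no unstimulated replicate. At 2 other places in Elmo1 the peaks were those of unstimulated replicates 1 and 3 alone. Elmo2 had no shared region and 0 to 2 peaks per replicate.

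Crk, the adaptor that brings DOCK1 to engulfment receptors and integrins, had 2, 1 and 2 peaks without stimulation, 6, 4 and 10 after LPS and 3, 4 and 4 after apoptotic cells. Both stimulated groups lay above the unstimulated one with no overlap (6.67 ± 3.06 and 3.67 ± 0.577 against 1.67 ± 0.577, SD, n = 3). A region inside Crk at chr11:75688241-75688489, 9106 bp from the start, was listed in LPS replicates 1 and 3 at 385.63 and 196.81 and in the replicates with apoptotic cells at 255.22, 218.24 and 184.35, and in no unstimulated replicate. By contrast, the region 237 bp past the end of Crk at chr11:75708665-75709039 was in all 3 unstimulated replicates, at 181.43, 84.49 and 241.55, and in 2 of 3 in each stimulated condition.

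Vav3, an exchange factor for RAC that acts below integrins and Fc receptors, is 345 kb long and had 3, 3 and 1 peaks without stimulation, 11, 12 and 4 after LPS and 7, 2 and 12 after apoptotic cells. The LPS replicates lay above the unstimulated ones (9.00 ± 4.36 against 2.33 ± 1.15, SD, n = 3), while those with apoptotic cells overlapped them. Of its 51 regions only 2 were shared, both by LPS replicates 1 and 3, so most of the LPS peaks at Vav3 did not recur at the same place. Vav1, the VAV protein of blood cells, had 0 to 3 peaks per replicate and no shared region.

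Among the genes that cut, cap or take apart filaments, 1 of 4 had a shared region in any condition, beside 50.3% of all genes. The share for genes as long as these 4 is not given here. Coro1a, a coronin of leukocytes, had 1, 1 and 1 peaks without stimulation, 3, 0 and 4 after LPS and 3, 2 and 3 after apoptotic cells. The replicates with apoptotic cells lay above the unstimulated ones (2.67 ± 0.577 against 1.00 ± 0, SD, n = 3), but LPS replicate 2 lay below them. A region 9138 bp beyond its lower end at chr7:126690388-126690636 was listed in 2 replicates of every condition, with scores of 127.72 to 188.14, and the nearest start was that of Slx1b at 5271 bp. Cfl1, Gsn and Capg, which encode cofilin, gelsolin and a capping protein, had 0 to 2, 0 to 4 and 0 to 1 peaks per replicate.

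The proteins that link filaments to the membrane or to integrins differed from gene to gene. Ezr (chr17:6738131-6782780), which encodes the membrane linker ezrin, had 0, 1 and 1 peaks without stimulation, none in the 3 LPS replicates and 4, 1 and 2 after apoptotic cells. It was the only listed gene with fewer peaks in every LPS replicate than in every replicate with apoptotic cells (2.50% of the list, beside 1.28% of all genes). None of its 9 regions was shared, so these peaks lay at different places. Vcl, the integrin linker vinculin, had 4, 0 and 0 peaks, then 4, 5 and 8, then 6, 3 and 2, and its LPS replicates met unstimulated replicate 1 at 4 peaks. A region 2571 bp before the start of Vcl at chr14:20926714-20926940, which the deposited gene column assigned to it, was listed in LPS replicates 1 and 3 and apoptotic cell replicates 1 and 2. Tln1 had no peak in any LPS replicate and 0 to 3 in the others, and Msn had 0 to 2, with no shared region at either.

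The myosin genes Myo1e (193 kb) and Myh9 (81.6 kb) each had a shared region in any condition. So did 50.3% of all genes and 57.8% of genes of similar length, matched to the whole list. Vim, the intermediate filament gene, is 8.52 kb long and had none, with 0 to 2 peaks per replicate. Myh9, the heavy chain of non-muscle myosin IIA, had 4, 0 and 2 peaks without stimulation, 2, 2 and 2 after LPS and 1, 3 and 4 after apoptotic cells. Its region inside the gene at chr15:77836834-77837007, 5255 bp from the start, was in all replicates but unstimulated replicate 2, with scores of 122.06 to 267.73. The number of peaks at Myh9 varied among the replicates without stimulation and with apoptotic cells but not among those with LPS. Myo1e, a membrane-bound myosin of the engulfing cup, had 4, 0 and 1 peaks, then 4, 6 and 6, then 1, 3 and 4, and LPS replicate 1 met unstimulated replicate 1 at 4. The shared regions of Myo1e were shared after LPS only, each by 2 of the 3 replicates.

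**Figure D5:**
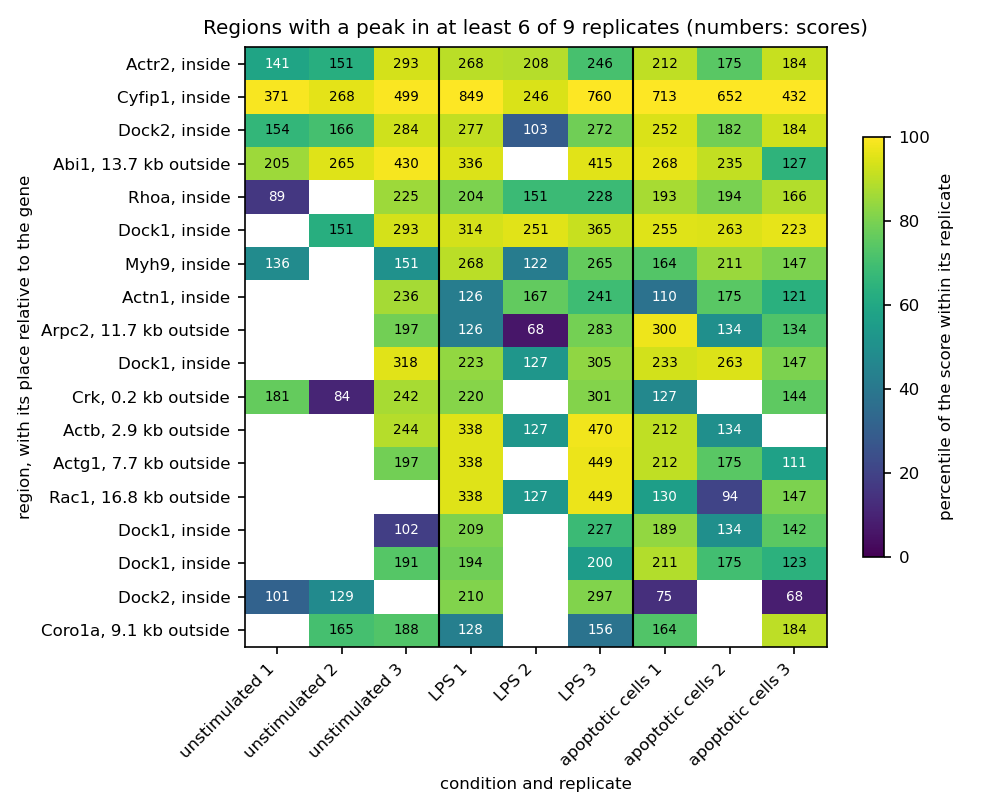
The 18 regions near listed genes with a peak in at least 6 of 9 replicates (rows, named by gene and by place inside or outside it), with the score printed for each replicate (columns), the colour giving the percentile of that score among the peaks of the same replicate, and white where no peak was listed. The top 3 rows, at Actr2, Cyfip1 and Dock2, are filled across all 9 columns, and the Rac1 row is empty in the unstimulated columns.

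Seen over all places, most peaks near these genes were listed once. The 40 windows held 667 regions, of which 584 (87.6%) had a peak in 1 of the 9 replicates, close to the 89.7% over the genome. The regions lay inside the gene in 68.4% of cases, against 54.1% for regions in the windows of all protein-coding genes, and the listed genes were also longer, with a median of 43.7 kb against 17.2 kb. Of 608 regions at the 35 genes with a listed start, 13 had their centre within 1000 bp of it. Whether a region lay in an exon or an intron was not determined here.

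The 67 shared regions belonged to 25 genes, with 41 inside and 26 outside the gene. Of these regions, 12 were listed in at least 2 unstimulated replicates, 64 in at least 2 LPS replicates and 25 in at least 2 with apoptotic cells, and 39 had no unstimulated peak. All protein-coding genes followed the same order, with a shared region near 13.6%, 48.7% and 24.4% of them. The same counts over all shared regions of the genome are not given here. The LPS regions were mostly those of 2 libraries, since 51 of the 53 with 2 of 3 LPS replicates were listed in replicates 1 and 3, both of the narrow class, and 23 were listed in no other replicate of the 9. The share of all genes with a shared LPS region likewise fell to 16.5% without replicate 1 and 15.1% without replicate 3. Across the 9 replicates, 14 listed genes (35.0%) had a region listed in at least 6, against 20% of genes of similar length and 16.6% of all genes. The deposited gene column gave 4 of the 67 regions to the listed gene, 8 to another gene only and 55 to no gene. Of the 60 shared regions at genes with a listed start, 38 had that gene as the nearest protein-coding start.

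The further list of 61 actin and engulfment genes, such as the remaining subunits of the same complexes, is given beside these counts. A shared region lay near 13 of the 61 (21.3%) without stimulation, 41 (67.2%) after LPS and 25 (41.0%) after apoptotic cells, beside 13.6%, 48.7% and 24.4% of all genes. No share for genes as long as these 61 is given here, for this count or for those that follow. Every LPS replicate listed more peaks than every unstimulated replicate at 12 of them, Diaph1, Enah, Fermt3, Iqgap1, Myl6, Pak1, Pxn, Rdx, Rhog, Twf1, Vasp and Wipf1, beside 9.87% of all genes. After apoptotic cells this was so at 3, Enah, Iqgap1 and Wipf1, beside 6.57% of all genes, and no gene of that list had fewer peaks in every stimulated replicate. Between the stimuli, Dock5 and Twf1 had more peaks in every LPS replicate than in every replicate with apoptotic cells, beside 1.99% of all genes, and Dock8 had fewer, beside 1.28%.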

How the data were processed

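FRA-1 ChIP-seq peaks were measured in 9 samples, 3 per condition, grouped by the treatment in the sample records, and the 3 pooled inputs were not used. The authors deposited 1 table per condition with a peak score for each replicate in each genomic segment, -1 where a replicate had no peak, a lowest score of 50.01 and no normalization between replicates; the submitters' processing notes name BWA 0.7.14, bedtools and the builds mm10 and GRCm38, and the peak caller was not given in the sources used here. The deposited count of replicates and, within 0.01, the deposited sum of scores matched the score columns in 100.0% of rows. Adjoining segments with the same score in a replicate were joined into peaks, and peaks that touched or overlapped by at least 1 bp were merged into regions, over the 3 replicates of a condition or over all 9.

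Peaks were assigned to the RefSeq GRCm38.p6 gene body with 20 kb on each side, and each listed gene was set beside protein-coding genes within 50% of its length, averaged over the list. For every protein-coding gene it was asked whether all replicates of one condition had more peaks than all replicates of the other. Any such separation has the same p of 0.1 in an exact permutation test, two-sided, which was computed at Rac1. Fisher's exact test was computed on numbers of replicates with and without a peak at a region, such as 3 of 3 against 0 of 3. Values by replicate were printed for genes with a shared region or with replicates that did not overlap between conditions, and other listed genes were given by range. The listed genes, the further list and the tests were chosen with earlier results of these data known. Alternatives were other flanks, the deposited gene column, a score of at least 100, equal numbers of peaks, each width class and each replicate left out. The steps were tested on simulated data. Tests used scipy 1.17.1, tables pandas 2.3.3 with numpy 2.4.6, and plots matplotlib 3.10.9, all under Python 3.11.15.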

Additional observations from a re-analysis of the deposited data

How the results depend on the processing

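The number of listed genes with a peak in any replicate was 36, 38 and 38 without stimulation, after LPS and after apoptotic cells, 23 without stimulation in the gene body alone, and 3, 14 and 12 by the deposited gene column. In any of the 3 conditions that column named 20 of the listed genes, beside 45.3% of all protein-coding genes. Shares of all genes with other flanks are not given here. Genes with a region shared by at least 2 replicates numbered 10, 25 and 17, and 1, 4 and 2 by the gene column. After apoptotic cells the shared count was 9 in the gene body alone and 11 with 5 kb on each side, and without stimulation it was 5 within the wide class. Leaving out each replicate gave 32 to 33, 36 to 37 and 35 to 37 genes with a peak and 5 to 8, 10 to 25 and 13 to 15 with a shared region, where the low LPS values of 11 and 10 came without replicates 1 and 3 and the unstimulated 5 without replicate 3, beside 16.5%, 15.1% and 6.71% of all genes.

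Genes with more peaks in every LPS than every unstimulated replicate numbered 6, against 12 with 50 kb, 1 by the gene column, 1 with equal numbers of peaks, 22 in the narrow and 16 in the wide class, and 6 to 18 when each replicate was left out (18 without LPS replicate 2, 11 without unstimulated replicate 3 and 10 without LPS replicate 1, beside 25.7%, 16.6% and 16.4% of all genes). For apoptotic cells the count was 5, against 2 in the gene body alone, 2 with 5 kb, 0 by the gene column, 2 at a score of at least 100, 1 with equal numbers, 23 in the narrow and 11 in the wide class, and 5 to 13 with each replicate left out (13 without apoptotic cell replicate 2, 9 without unstimulated replicate 3 and 8 without apoptotic cell replicate 3, beside 19.3%, 12.2% and 8.16% of all genes). Fewer replicates overlap less by construction, and otherwise the cause was not tested. At a score of at least 100 the counts of 5 after LPS and 2 after apoptotic cells stood beside 6.91% and 3.94% of all genes. The 5 LPS genes were then partly other genes than the 6. Of 182 differences at single genes under these alternatives, 1 turned its direction, Rac1 after apoptotic cells at -0.333 peaks per replicate in the gene body alone, and 8 were at 0. No paired analysis was possible because no mouse is named for any column of scores. The depth of the replicates is unknown, the scores carry many ties, and an exact permutation test of 3 replicates against 3 cannot give a p below 0.1.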
